A study of Homo sapiens with 6 samples.

Results

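MiR-103 and miR-107 are microRNAs (miRNAs) cut from hairpins inside introns of the PANK genes, and they are described here by 4 names: hsa-miR-103a-3p, hsa-miR-103b, hsa-miR-107 and hsa-miR-103a-2-5p. The members were chosen by name, among the 1727 names of known mature miRNAs that the tables list. Presence in the tables is the measured value behind the choice, with no limit on counts or on the contrast, but the names were put together with results of these libraries already known, so their levels below are a description. All 4 passed the filter on low counts that left 668 names for testing. The libraries came from BEAS-2B, an immortalised human bronchial epithelial cell line. PRMT1 libraries (n = 3) were made from cells given pcDNA-PRMT1, a plasmid carrying the arginine methyltransferase PRMT1, and control libraries (n = 3) from cells given pcDNA3.1, the plasmid without it. Both groups were collected 48 h after the plasmids were given, and the design compares the small RNA of cells given PRMT1 with that of cells given the plasmid alone. PRMT1 was added by plasmid in a single cell line, and its own level, which small RNA counts do not give, was not analysed here. The labels leave unstated whether replicates were grown as separate cultures. The p-values below therefore refer to the spread among these libraries, and that spread may be technical.

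The PANK genes encode pantothenate kinases, which carry out the first step of coenzyme A synthesis, and their resident miRNAs are transcribed within the host introns. A hairpin yields a guide arm, which is loaded into Argonaute and pairs with messenger RNAs through its seed, and a passenger arm, which is mostly degraded. MiR-103 and miR-107 are known as repressors of DICER1, the enzyme that cuts precursors into mature miRNAs, and as regulators of insulin sensitivity in mouse liver and fat. In epithelial cells they are known to favour mesenchymal traits through loss of DICER1.

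The sequences carry the difficulty of measuring these names, because 3 of them cover nearly the same bases, with miR-103b on the opposite strand. The mature sequences below are from RefSeq on GRCh38.p14, which held an entry for all 5 names looked up, the 4 members and the other miR-103a passenger arm. They are written 5′ to 3′, and capitals mark the seed, bases 2 to 8.
hsa-miR-103a-3p: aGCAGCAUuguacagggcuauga
hsa-miR-107: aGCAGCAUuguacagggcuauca
hsa-miR-103b: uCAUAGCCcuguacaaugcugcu
hsa-miR-103a-2-5p: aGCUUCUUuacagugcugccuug
hsa-miR-103a-1-5p: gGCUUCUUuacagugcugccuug

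MiR-103a-3p and miR-107 share 22 of 23 bases and differ by G22C, with positions counted from 1 at the 5′ end of miR-103a-3p. Their seed, GCAGCAU, was held by no other name among 2370 RefSeq human mature names. MiR-103b is the exact reverse complement of miR-103a-3p over 23 of 23 bases, and its seed, CAUAGCC, was found in that 1 name. A read of miR-103a-3p therefore also matches the miR-103b locus, on the opposite strand, and how the authors' counting used strand and divided reads with several matches was not given in the sources used here. Counts of miR-103a-3p, miR-103b and miR-107 are for this reason uncertain as single names, and their sums are given beside them. The passenger arms of the 2 miR-103a hairpins share 22 of 23 bases and differ by A1G, counted from the 5′ end of miR-103a-2-5p.

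MiR-103a-3p has 2 source hairpins. On GRCh38, its mature sequence lies at chr5:168560904-168560926 on the minus strand, in the hairpin MIR103A1, and at chr20:3917541-3917563 on the plus strand, in MIR103A2. MIR103A1 lies within intron 5 of PANK3, on the host's strand, in 1 of 2 coding transcripts of GENCODE release 29, and no coding transcript had it in an exon. MIR103A2 lies within intron 5 or 6 of PANK2, depending on the transcript, in 6 of 6 coding transcripts. MiR-107 lies at chr10:89592756-89592778 on the minus strand, within intron 4 or 5 of PANK1 in 3 of 3 coding transcripts. MiR-103b has the coordinates of miR-103a-3p on chromosomes 5 and 20 on the other strand, opposite to PANK3 and PANK2. The RefSeq hairpin of MIR107 holds a passenger stretch of the same kind at bases 13 to 35, shown with the base that differs from miR-103a-2-5p in capitals.
MIR107 hairpin: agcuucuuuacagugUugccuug
It differs from miR-103a-2-5p by C16U, with positions counted from the 5′ end of miR-103a-2-5p.

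Total counts were 23.95 to 25.79 M in PRMT1 libraries and 24.01 to 25.09 M in control libraries, and known miRNAs held 11.91 to 14.43 M of them in PRMT1 libraries and 11.54 to 16.42 M in control libraries. Values below are counts per 1000000 (CPM) of the known miRNA counts after TMM scaling, and the limit that a count of 0 allows, 3 counts, was 0.195 to 0.251 CPM. Control library 2 stood apart with a TMM factor of 0.761, against 0.986 to 1.11 in the others, and with the highest share of miR-21-5p, 66.0%. The epithelial markers chosen to check the line were all detected, 7 of 7. Their summed levels were 7999 to 8876 CPM in PRMT1 libraries and 7746 to 10086 CPM in control libraries. Most of this was miR-200a-3p, miR-200b-3p and miR-429, with means of 4009, 2230 and 2371 CPM over all 6 libraries. The other markers were low. MiR-200c-3p averaged 47.6 CPM in PRMT1 and 49.0 CPM in control libraries, and miR-141-3p averaged 21.4 CPM in PRMT1 and 19.4 CPM in control libraries. MiR-205-5p averaged 7.92 CPM in PRMT1 and 4.82 CPM in control libraries, and miR-203a-3p averaged 3.43 CPM in PRMT1 and 3.09 CPM in control libraries. The groups did not overlap for 2 of these 7, against 10.2% of all 668 tested names. These were miR-205-5p (log2 fold change 0.72, SE 0.31) and miR-429 (log2 fold change -0.28, SE 0.20), and neither passed the test. MiR-429 averaged 2146 CPM in PRMT1 and 2597 CPM in control libraries. The summed markers of other cell types overlapped between the groups. They were 73.2 to 99.6 CPM in PRMT1 and 75.4 to 131 CPM in control libraries for blood, and 1665 to 2293 CPM in PRMT1 and 1777 to 2071 CPM in control libraries for endothelium. The blood sum was mostly miR-486-5p, which averaged 61.7 CPM in PRMT1 and 83.3 CPM in control libraries, while the other 2 tested blood markers leaned the other way. MiR-150-5p averaged 12.2 CPM in PRMT1 and 7.06 CPM in control libraries, without overlap of the groups, and miR-451a averaged 11.6 CPM in PRMT1 and 5.62 CPM in control libraries (log2 fold change 1.04, SE 0.47), and none of the 3 passed the test. For muscle they were 9.17 to 12.6 CPM in PRMT1 and 9.98 to 13.8 CPM in control libraries, for neural cells 183 to 293 CPM in PRMT1 and 196 to 240 CPM in control libraries, and for liver 0.586 to 1.23 CPM in PRMT1 and 0.720 to 1.48 CPM in control libraries.

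Counts were split differently between miR-103a-3p and its antisense name miR-103b in each library, while the sum of both names varied far less. The sum ranged 1.98-fold, against 26.0-fold for miR-103a-3p and 11.9-fold for miR-103b. MiR-103a-3p, the guide arm, had 53.4, 432 and 1226 CPM in PRMT1 libraries 1 to 3, against 1039, 1388 and 728 CPM in control libraries 1 to 3. Behind these stood 820, 5249 and 14652 counts in PRMT1 and 14160, 17342 and 9364 counts in control libraries. PRMT1 library 1 was far below every other library and PRMT1 library 3 was second highest, so the groups overlapped.

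MiR-103b, the antisense name, fell from PRMT1 library 1 to library 3 where miR-103a-3p rose, but control library 1 was high in both names. MiR-103b had 1014, 823 and 90.5 CPM in PRMT1 libraries and 1080, 356 and 428 CPM in control libraries. Its counts were 15589, 10005 and 1082 in PRMT1 and 14714, 4453 and 5506 in control libraries. Its lowest library was PRMT1 library 3 and its highest control library 1, and the groups overlapped. MiR-103b took 95.003% of the counts of both names in PRMT1 library 1 (95% Wilson interval 94.7 to 95.3), 65.6% in library 2 (64.8 to 66.3) and 6.88% in library 3 (6.49 to 7.28). In control libraries 1 to 3 the share was 51.0% (50.4 to 51.5), 20.4% (19.9 to 21.0) and 37.0% (36.3 to 37.8). These intervals cover counting error only, and no pair of libraries had overlapping intervals.

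The share of miR-103b averaged 55.8% ± 44.9 in PRMT1 libraries and 36.1% ± 15.3 in control libraries (SD, n = 3 each). The control values lay inside the range of the PRMT1 values, and the difference of 19.7 percentage points gave a two-sided exact permutation p of 0.5, with 0.1 the smallest that 3 against 3 libraries allow. Adjusted by Benjamini-Hochberg over the 3 composition measures tested, this p was 0.9. Without PRMT1 library 1 the difference was 0.0937 points and without PRMT1 library 3 it was 44.2 points.

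**Figure D1:**
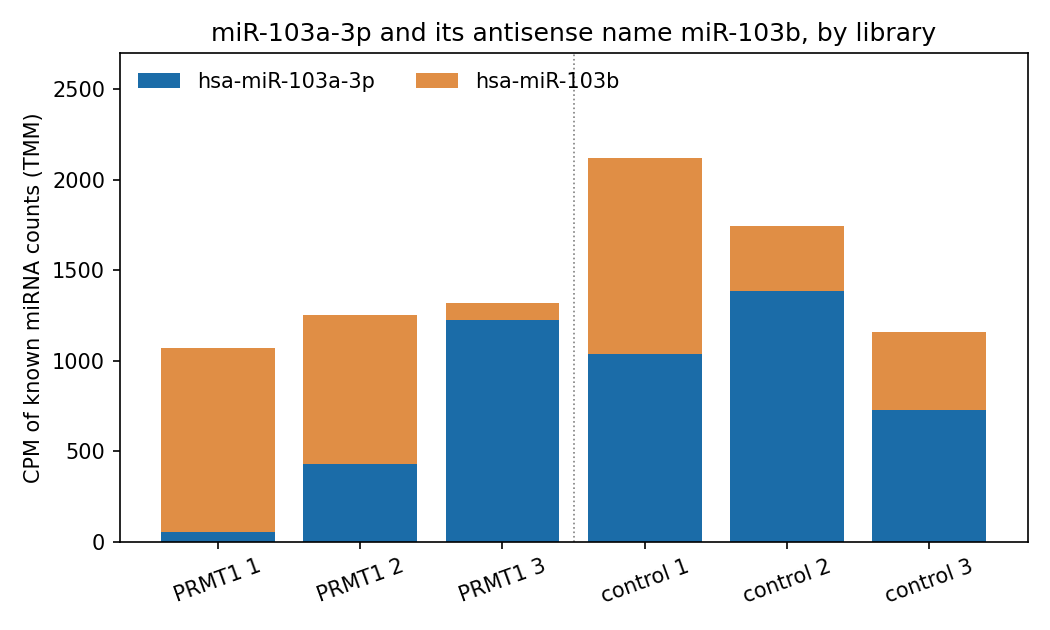
Stacked bars give the CPM of hsa-miR-103a-3p and of hsa-miR-103b in each of the 6 libraries, on a linear axis that starts at 0. The antisense name fills nearly all of the bar in PRMT1 library 1 (95.003% of the counts) and little of it in PRMT1 library 3 (6.88%), while the height of the bars stays between 1068 and 2119 CPM.

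Summed, miR-103a-3p and miR-103b had 1068, 1254 and 1316 CPM in PRMT1 libraries and 2119, 1744 and 1157 CPM in control libraries. The PRMT1 libraries lay close together, 2 control libraries were higher than all of them, and control library 3 fell between PRMT1 libraries 1 and 2, so the groups overlapped. The sum averaged 1213 ± 129 CPM in PRMT1 libraries and 1673 ± 485 CPM in control libraries (SD, n = 3 each). Its log2 fold change, PRMT1 over control, was -0.51 (SE 0.25, 95% interval -1.07 to 0.05), with an adjusted p of 0.747 in the quasi-likelihood test of edgeR. Without control library 1 it was -0.27.

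None of the 4 members passed the test between PRMT1 and control libraries, where 0% of the 668 names were called. At an unadjusted p under 0.05, edgeR counted 36 of the 668 names, 19 higher and 17 lower in PRMT1 libraries. That is near the share such a limit passes when no name differs. DESeq2 called 3 names at an adjusted p of 0.05 and limma-voom 0. No member was among the names counted or called. The CPM of the groups overlapped for all 4 members, against 10.2% of tested names whose groups did not overlap. MiR-103a-3p averaged 570 ± 598 CPM in PRMT1 and 1052 ± 330 CPM in control libraries (SD, n = 3 each), a log2 fold change of -0.88 (SE 1.08, 95% interval -3.69 to 1.93) with an adjusted p of 0.877. MiR-103b averaged 643 ± 488 CPM in PRMT1 and 622 ± 399 CPM in control libraries (SD, n = 3 each), a log2 fold change of 0.05 (SE 0.96, 95% interval -2.42 to 2.51) with an adjusted p of 0.991. The SEs of both single names were far above the median SE of 0.25 among the 159 names with a mean of at least 100 CPM, whereas that of their sum was close to it. For miR-103a-3p the log2 fold change was -2.13 without PRMT1 library 3 and -0.38 without PRMT1 library 1, and for miR-103b it changed sign when any of 4 libraries was left out.

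**Figure D2:**
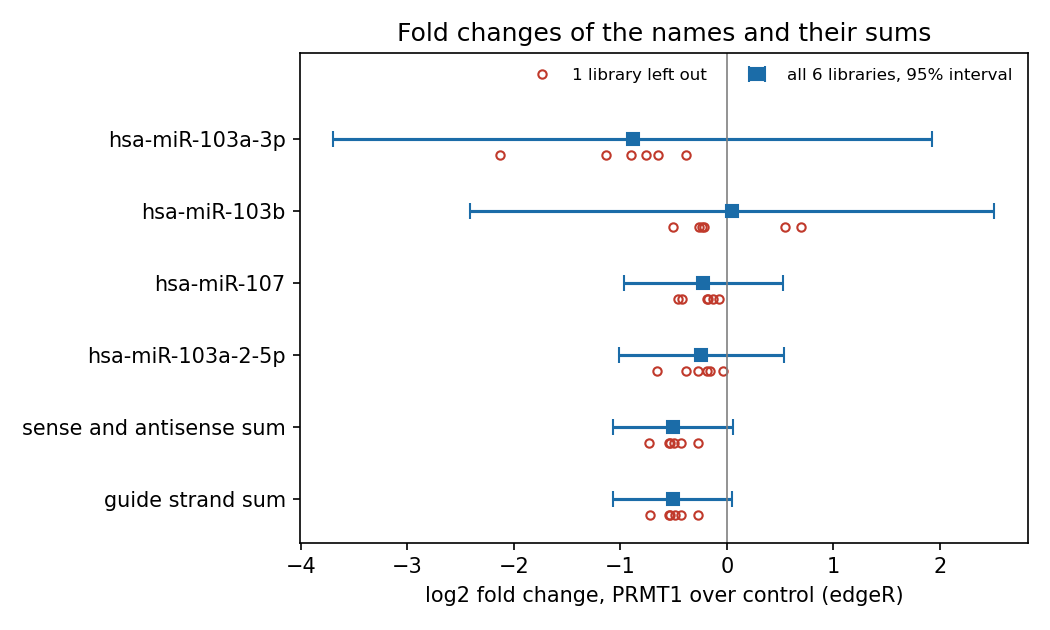
Squares give the log2 fold change, PRMT1 over control, from edgeR with its 95% interval for the 4 members and both sums, and open circles give it with 1 library left out. The interval of hsa-miR-103a-3p runs from -3.69 to 1.93 and that of the sense and antisense sum from -1.07 to 0.05, and all 6 intervals include 0.

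MiR-107, the guide arm of the PANK1 hairpin, was a minor name. It had 6.77, 5.10 and 4.77 CPM in PRMT1 libraries and 4.33, 7.04 and 8.09 CPM in control libraries, from 104, 62 and 57 counts in PRMT1 and 59, 88 and 104 counts in control libraries. The libraries of both groups intermingled, with the lowest and the highest value both in control. It averaged 5.54 ± 1.07 CPM in PRMT1 and 6.49 ± 1.94 CPM in control libraries (SD, n = 3 each), with a log2 fold change of -0.22 (SE 0.33, 95% interval -0.97 to 0.52) and an adjusted p of 0.929.

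As a share of the guide strand sum, which joins miR-103a-3p, miR-103b and miR-107, miR-107 took 0.630%, 0.405% and 0.361% in PRMT1 libraries and 0.204%, 0.402% and 0.695% in control libraries. The Wilson intervals of the lowest and the highest library, both control, were 0.158 to 0.263 and 0.574 to 0.841 and did not overlap. The share averaged 0.465% ± 0.144 in PRMT1 and 0.434% ± 0.247 in control libraries (SD, n = 3 each), with an exact permutation p of 0.9, also when adjusted over the 3 measures. The guide strand sum averaged 1218 ± 128 CPM in PRMT1 and 1680 ± 483 CPM in control libraries (SD, n = 3 each), with a log2 fold change of -0.51 (SE 0.25) and an adjusted p of 0.743, so that adding miR-107 left the comparison nearly as it was.

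Of the passenger arms, miR-103a-2-5p, from the PANK2 hairpin at chr20:3917504-3917526 on the plus strand, had 5.92, 10.2 and 4.68 CPM in PRMT1 libraries and 9.25, 8.08 and 7.23 CPM in control libraries. Its counts were 91, 124 and 56 in PRMT1 and 126, 101 and 93 in control libraries. The highest and the lowest library were both PRMT1, and the control values lay between them. The arm averaged 6.93 ± 2.89 CPM in PRMT1 and 8.19 ± 1.01 CPM in control libraries (SD, n = 3 each), with a log2 fold change of -0.24 (SE 0.34, 95% interval -1.01 to 0.53) and an adjusted p of 0.920. Per 1000 counts of the sense and antisense sum it had 5.55, 8.13 and 3.56 counts in PRMT1 libraries and 4.36, 4.63 and 6.25 counts in control libraries. These ratios, 5.74 ± 2.29 in PRMT1 and 5.08 ± 1.02 in control libraries (SD, n = 3 each), gave an exact permutation p of 0.7, or 0.9 adjusted over the 3 measures.

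The other passenger arm, miR-103a-1-5p, from the PANK3 hairpin at chr5:168560941-168560963 on the minus strand, is not among the 4 members and did not pass the filter. It had 5, 4 and 3 counts in PRMT1 libraries and 5, 5 and 11 counts in control libraries, or 0.251 to 0.329 CPM in PRMT1 and 0.367 to 0.856 CPM in control libraries. These levels were near the limit of detection, and no comparison was drawn from them. It made up 3.13% to 5.21% of both passenger arms in PRMT1 libraries and 3.82% to 10.6% in control libraries, so most reads named for a passenger arm carried the PANK2 name. The 2 arms differ only at base 1, and how reads matching both were divided was not given. The share by hairpin is therefore uncertain. Whether reads of the MIR107 passenger arm were counted under either name was not tested.

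**Figure D3:**
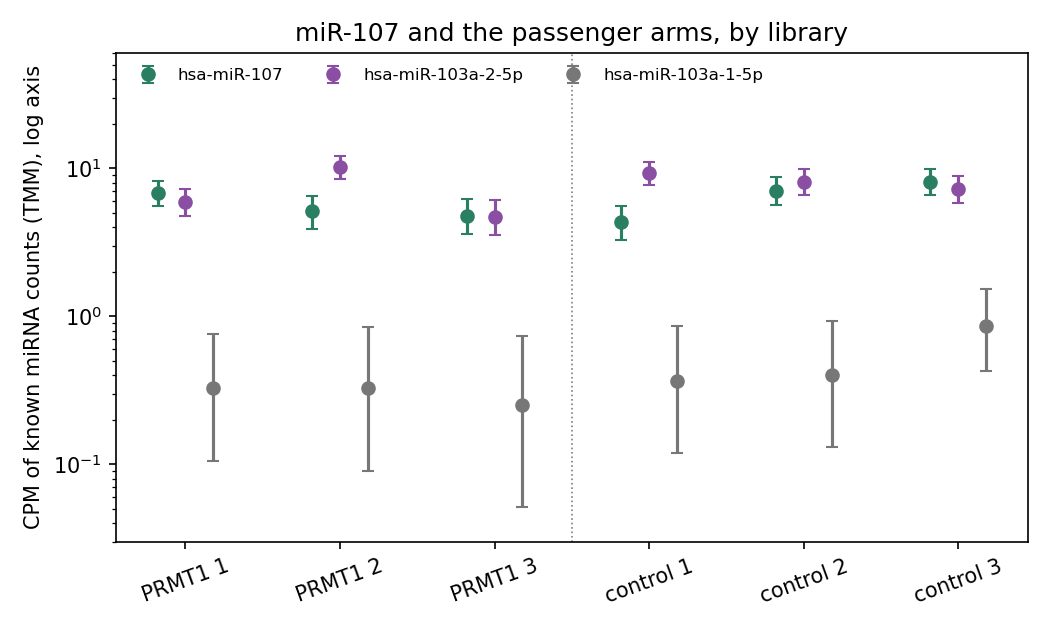
Points give the CPM of hsa-miR-107 and of both miR-103a passenger arms in each library on a log axis, with exact Poisson 95% intervals of the counts as bars. The first 2 names lie between 4.33 and 10.2 CPM in all 6 libraries, with both groups intermingled, and hsa-miR-103a-1-5p lies below 1 CPM.

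The tables also hold a row for the precursor family of miR-103 and miR-107 in Rfam, a collection of RNA families, which was counted apart from the mature names. It had 81.9, 103 and 96.6 CPM in PRMT1 libraries and 85.2 to 109 CPM in control libraries, on the same scale of known miRNA counts. The groups overlapped, and the highest library was 1.33 times the lowest. It averaged 93.8 ± 10.8 CPM in PRMT1 and 100 ± 13.2 CPM in control libraries (SD, n = 3 each). PRMT1 libraries 1 and 3 lay at the opposite ends of the split between miR-103a-3p and miR-103b. On this scale their exact Poisson 95% intervals did not overlap, with 77.5 to 86.6 CPM in library 1, the lowest of the 6, and 91.1 to 102.3 CPM in library 3. The direction depended on the scale. Library 1 held more counts of this row than library 3, 1259 against 1155, and a larger share of all counts, 0.00524% against 0.00482%.

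By mean level over all 6 libraries, miR-103a-3p ranked 68th and miR-103b 77th of the 668 tested names, miR-103a-2-5p 364th and miR-107 397th. Counted once, as their sum, miR-103a-3p and miR-103b ranked 52nd. The library values of the neighbours miR-103a-3p and miR-103b overlapped, as did those of miR-103a-2-5p and miR-107. Differences in level between names were not tested. Across libraries, miR-103a-3p spanned 26.0-fold from its lowest to its highest CPM, 4.70 on the log2 scale, and miR-103b 11.9-fold, or 3.58. Among the 159 names with a mean of at least 100 CPM, whose median range was 0.78 on the log2 scale (quartiles 0.55 and 1.22), these were the 7th and the 12th largest. Their sum spanned 1.98-fold, or 0.99 on the log2 scale, and would have ranked 57th. Within groups, miR-103a-3p spanned 4.52 on the log2 scale in PRMT1 libraries and 0.93 in control libraries, and miR-103b 3.49 in PRMT1 and 1.60 in control libraries. Their sum went the other way, with 0.30 in PRMT1 and 0.87 in control libraries.

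**Figure D4:**
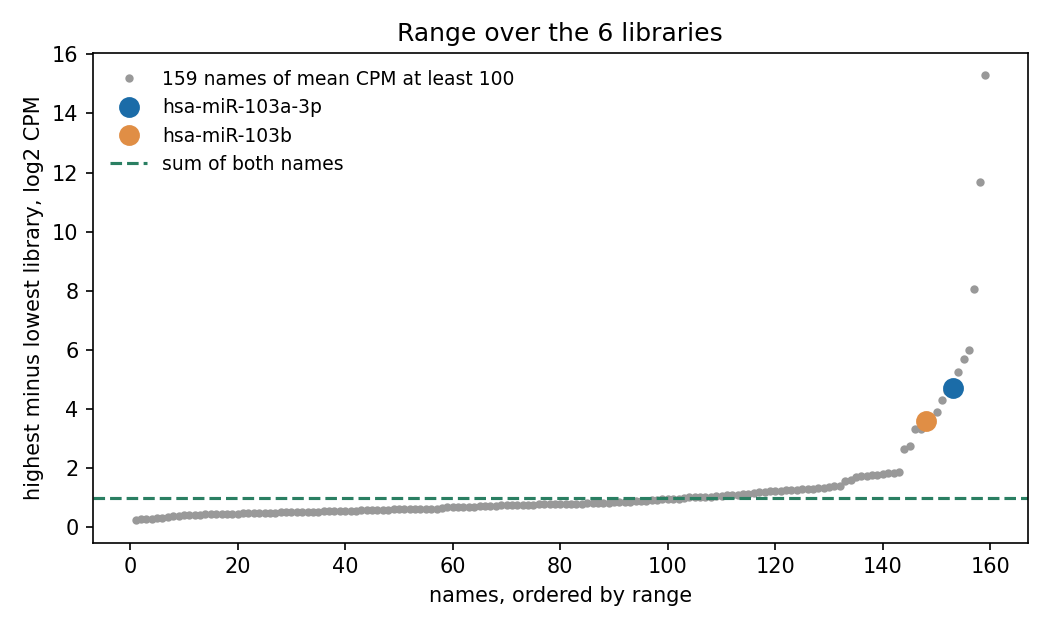
Each point is a known miRNA name with a mean of at least 100 CPM, placed by the log2 difference between its highest and lowest library and ordered by it. The names hsa-miR-103a-3p (4.70) and hsa-miR-103b (3.58) lie on the steep right end, and the dashed line marks their sum (0.99).

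Such uneven splits were not particular to miR-103. The limits used for this comparison were chosen after the values were seen. Among names that share at least 18 bases in a row with a name on the opposite strand, 9 pairs had at least 1000 counts in every library, and in 4 of them the share of the first name ranged over 50 percentage points or more. Among pairs sharing such a run on the same strand, 10 had enough counts and 0 ranged that widely, the largest range being 20.3 points. On both strands some first names held too few counts to range widely, such as miR-3184-5p (opposite, up to 0.033%) and miR-449b-5p (same, up to 1.18%). The limits also left out miR-378b, miR-378f and miR-378e, whose ranges of 15.3, 11.7 and 8.06 on the log2 scale exceeded that of miR-103a-3p. The comparison therefore cannot show that wide splits are confined to opposite strands. The median range was 7.75 points for the opposite strand pairs and 0.563 points for the same strand pairs.

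The 4 wide pairs did not move together across libraries. MiR-103b with miR-103a-3p ranged over 88.1 points. MiR-3184-3p with miR-423-5p ranged over 92.4 points, with shares of 95.9%, 17.1% and 3.46% in PRMT1 libraries and 11.1%, 93.9% and 14.6% in control libraries. MiR-7-5p with miR-3529-3p ranged over 79.9 points, with shares of 18.9%, 75.1% and 85.6% in PRMT1 libraries and 5.70%, 83.5% and 16.5% in control libraries. The highest share thus fell in PRMT1 library 1 for the miR-103b and miR-3184-3p pairs and in PRMT1 library 3 for the miR-7-5p pair.

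For miR-374b-5p with miR-374c-3p the range was 96.0 points, with shares of 59.96%, 97.8% and 38.4% in PRMT1 libraries and 5.40%, 1.79% and 32.6% in control libraries, the one wide pair whose groups did not overlap. The pair was picked for its range, so no test is given. MiR-107 with miR-103b, which share 22 of 23 bases on opposite strands, ranged over 4.61 points.

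**Figure D5:**
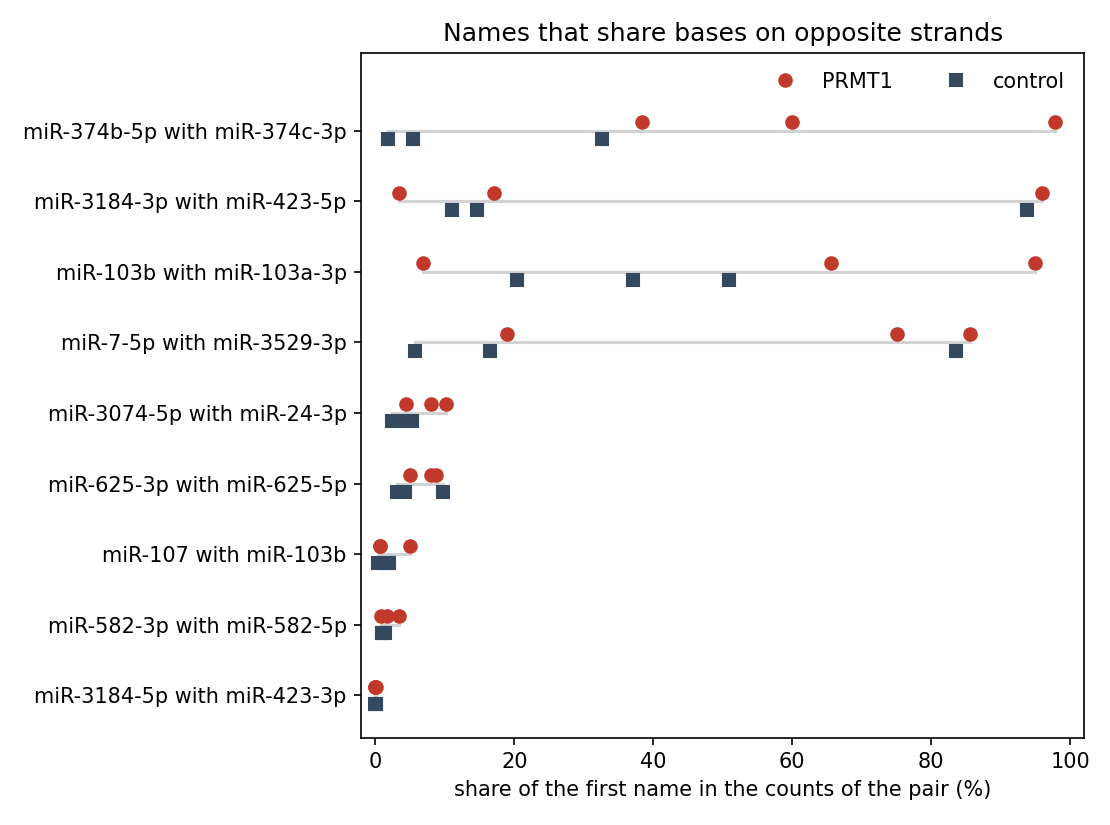
For each of the 9 pairs of names that share at least 18 bases in a row on opposite strands, points give the share of the first name in the counts of the pair in each library, in percent. The top 4 pairs, hsa-miR-103b with hsa-miR-103a-3p among them, spread over 79.9 to 96.0 percentage points, and the other 5 stay within 7.75 points.

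Other miRNAs that bear on the miR-103 and miR-107 pathway are given from lists chosen for their known roles, and 0 members of any list were called, as for 0% of all tested names. Most names of the miR-15/16 family, regulators of the cell cycle, hold the first 7 bases of miR-103a-3p as their own seed, shifted by 1 base, as these RefSeq sequences show with capitals at bases 2 to 8.
hsa-miR-16-5p: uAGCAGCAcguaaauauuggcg
hsa-miR-15b-5p: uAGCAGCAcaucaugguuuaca
Of 9 names listed for this family, 7 hold that seed, and miR-503-5p (log2 fold change 0.30, SE 0.24) and miR-646 were not among the names found with it. Of the 9, 7 were tested, miR-503-5p among them, 3 above and 4 below 0 on the log2 scale, with a median log2 fold change of -0.05, against 0.04 over all 668 tested names, of which 360 lay above 0 and 308 below. MiR-16-5p averaged 16609 ± 996 CPM in PRMT1 and 18114 ± 3595 CPM in control libraries (SD, n = 3 each; log2 fold change -0.13, SE 0.17). The log2 fold changes were -0.06 for miR-424-5p, -0.36 (SE 0.19) for miR-15b-5p and 0.25 (SE 0.21) for miR-15a-5p, the one name of the family whose groups did not overlap, 1 of 7 against 10.2% of all tested names.

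Among 9 let-7 and miR-98 names known to target DICER1, as miR-103 and miR-107 do, 4 lay above and 5 below 0, with a median log2 fold change of -0.01, and the groups overlapped for all 9. The log2 fold changes of the most abundant were -0.02 for let-7i-5p, 0.01 for let-7a-5p, -0.06 for let-7f-5p and 0.14 for let-7b-5p. Of 13 names known in insulin, lipid or energy metabolism, 10 were tested, 5 above and 5 below 0, with a median of 0.07. The most abundant were miR-27a-3p, a repressor of fat cell formation, with a log2 fold change of 0.29 (SE 0.49), miR-29a-3p with 0.46 (SE 0.24), miR-27b-3p with -0.06 and miR-34a-5p, a target of p53, with -0.03. The groups did not overlap for 1 of the 10, a share near the 10.2% of all tested names. This was miR-378a-3p, whose hairpin lies inside the PPARGC1B gene, which averaged 2215 ± 59.6 CPM in PRMT1 and 4602 ± 2410 CPM in control libraries (SD, n = 3 each; log2 fold change -1.05, SE 0.34).

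The names whose profile over the 6 libraries was most like that of miR-103a-3p, by the root mean square distance of centred log2 CPM among 157 names of at least 100 CPM, were miR-941 (1.36), miR-93-5p (1.40), miR-196a-5p (1.42), miR-99b-3p (1.44) and miR-25-3p (1.45). The median distance over these names was 1.59, so even the nearest names were not close to the profile of miR-103a-3p. To the sum of miR-103a-3p and miR-103b, a comparison added after the data were seen, the median distance was 0.393. The distance was not scaled to spread, and the sum ranged over 0.99 on the log2 scale against 4.70 for miR-103a-3p. The smaller distances to the sum therefore do not show a greater likeness. The nearest were miR-301a-3p (0.150), miR-93-5p (0.183), miR-584-5p (0.185), miR-15b-5p (0.193) and miR-185-5p (0.200). These distances describe 6 libraries that share depth and scaling.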

How the data were processed

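Small RNA was counted in 3 PRMT1 and 3 control libraries. The deposited counts are whole reads per feature per the file headers, not normalised, and the deposited TPM matched CPM of the library total within 0.005 and served for this check alone. Per the submitters' processing notes, the tools were HISAT, Bowtie2 and RSEM and the build GRCh37.p13, with roles not given in the sources used here, and the labels' protocol describes mRNA enrichment although the tables hold small RNA. Absent rows were taken as 0. Counts of the mature class were filtered (filterByExpr, minimum count 10), scaled by TMM and tested by quasi-likelihood with robust dispersions in edgeR 4.0.16 (R 4.3.3), adjusted by Benjamini-Hochberg over 668 names holding 99.98% of counts, at 0.05. DESeq2 1.42.0 and limma-voom 3.58.1 were alternatives. The fit was tested on simulated data. SE is the log2 fold change divided by the root of F. Compositions used exact permutation tests. Members and lists were chosen with earlier results of these data known. Named miRNAs are the members, other arms of their hairpins, up to 4 list members of highest mean CPM and the 5 most alike names, and other names were chosen after their values were seen. Hairpins came from RefSeq on GRCh38.p14 and host transcripts from GENCODE 29 on GRCh38, not the submitters' build. The alternatives were other scalings and filters, other tests, all RNA classes, the replicate block and omission of each library.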

Additional observations from a re-analysis of the deposited data

How the results depend on the processing

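No member was called under any alternative that gave it a value, the lowest adjusted p being 0.376, for the sense and antisense sum. The count of called names, 0, became 3 with DESeq2 (miR-378b, miR-378e and miR-548n), 9 without a filter, 1 with the replicate block (miR-378b) and 0 to 1 with each library left out in turn, the 1 being miR-378e without PRMT1 library 1. The log2 fold change of miR-103b, 0.05, turned to -0.36 with limma-voom, to -0.34 with the replicate block and to -0.055 with all RNA classes, and ran from -0.51 without PRMT1 library 1 to 0.70 without control library 1. The causes were not tested. That of miR-103a-3p stayed below 0 throughout, from -2.13 to -0.38 with each library left out, and was -1.72 with the block and -1.77 with limma-voom. The sum stayed between -0.73 and -0.27, the lowest without control library 3 and the highest without control library 1. MiR-107 ran from -0.46 without control library 1 to -0.07 without control library 3, and miR-103a-2-5p from -0.66 without PRMT1 library 2 to -0.04 without PRMT1 library 3. Neither passed a filter of CPM 10, which gave them no value. The difference in the miR-107 share, 0.0317 points, ran from -0.0831 without control library 1 to 0.162 without control library 3, and that in miR-103a-2-5p per 1000, 0.661, from -0.532 without PRMT1 library 2 to 1.75 without PRMT1 library 3. Same-numbered libraries correlated at -0.0461, 0.210 and -0.0866 in their deviations from the group means, against -0.170 to 0.218 for other pairs. A library did not always correlate best with its own number. With 3 libraries per group these correlations cannot show whether the numbers pair the samples, which the labels leave unstated. The median log2 fold change of all tested names was 0.04 with TMM, 0.09 with library size only, -0.0049 with RLE and -0.012 with upper quartile scaling. With 3 libraries per group and 56 to 126 counts per library, the 95% intervals of the log2 fold change were -0.97 to 0.52 for miR-107 and -1.01 to 0.53 for miR-103a-2-5p.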
